A study of Sus scrofa with 8 samples.

Results

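The WNT ligands, their Frizzled receptors, the secreted inhibitors and the factors that carry the signal to the nucleus were followed in cultured muscle cells of pigs. Members were taken by gene symbol from the deposited table, which gave 43 genes of 25285, each present once: 16 ligands, 7 Frizzled receptors, the co-receptor LRP6, 7 secreted inhibitors, 3 R-spondins, 3 R-spondin receptors, 2 axins and 4 nuclear factors. The cells were primary cells from skeletal muscle of the strain LYD, called MuSCs in the extraction protocol, and RNA was sequenced from differentiated female, differentiated male, undifferentiated female and undifferentiated male cultures. Each of these 4 groups held 2 libraries. Sex, strain and state of the culture are the only attributes the labels give, with no medium, no time in culture and no age, and nothing in them says that replicates came from separate animals, so the p-values speak for the spread of these libraries alone, which may be technical.

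WNT proteins are secreted, lipid-modified ligands that bind Frizzled receptors together with LRP5 or LRP6. In the branch named after beta-catenin, binding stops a complex built on axin and APC from destroying beta-catenin, which then joins TCF and LEF factors on DNA. Other branches act on cell polarity and calcium. In mouse muscle, WNT signals take part in the formation of the muscle, the growth of satellite cells and the fusion of myoblasts.

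Levels are deposited FPKM, which counts fragments per length of the transcript and per size of the library. Coordinates follow Sscrofa10.2. Read numbers are unknown. The relative depth, read from genes of low FPKM, lay between 1 and 1.64 in differentiated libraries and between 1.66 and 2.28 in undifferentiated ones, so a gene near 0 was sampled less in differentiated cells. The muscle marker MYOG stood at 791 to 1519 FPKM in differentiated and 40.5 to 130 FPKM in undifferentiated libraries, and MYOD1 at 80.1 to 105 FPKM in differentiated and 156 to 221 FPKM in undifferentiated libraries. PAX7 and MYF5 were not matched by symbol and are not analysed here. Of 8 fibroblast markers, 7 were found. Their summed level was 431 to 1131 FPKM in differentiated and 107 to 322 FPKM in undifferentiated libraries. This sum was highest in male replicate 1 of both states and came mostly from COL1A1, whose row spans 526 bp, and COL3A1. Of the 6 tested, COL1A1, COL3A1 and FAP rose, beside 18.0% of all tested genes, and PDGFRA, DCN and LUM did not pass. COL1A1 overlapped between the states, and TCF21 was too low to be tested. Some markers of other cells were near 0 in every library, with PTPRC (immune) at up to 0.199 FPKM, KDR (endothelial) at up to 0.0878 FPKM, PLIN1 (adipocyte) at up to 0.193 FPKM and MYH11 (smooth muscle) at up to 0.0931 FPKM, but others of the same lists were not. All 4 tested genes of the smooth muscle and pericyte list rose, beside 18.0% of all tested genes, and PDGFRB overlapped between the states. The sums of this list were 1020 to 1220 FPKM in differentiated libraries, mostly from ACTA2, and 17.5 to 40.1 FPKM in undifferentiated ones. Of the immune list CD14 fell, at 1.74 to 2.46 FPKM in differentiated and 11.5 to 15.2 FPKM in undifferentiated libraries, and of the Schwann cell list S100B fell, at 0.969 to 3.55 FPKM in differentiated and 3.72 to 7.07 FPKM in undifferentiated libraries. The endothelial PECAM1 was at 2.07 to 6.78 FPKM in differentiated and 2.11 to 6.31 FPKM in undifferentiated libraries and did not pass. The part of these marker lists in the results below was not tested. In bulk RNA, fewer cells of a type and less RNA per cell cannot be told apart.

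A filter on the mean of the 8 libraries, at 1 FPKM or more, left 21 of the 43 members to be tested and 22 under it. With both sexes weighted equally, 13 of the 21 rose in differentiated cells, 3 fell and 5 did not pass against undifferentiated cells (limma on log2(FPKM + 1), Benjamini-Hochberg adjusted over 12963 genes). The same test called 18.0% of all tested genes higher and 31.9% lower, 50.0% in either direction. All 4 differentiated libraries stood above all 4 undifferentiated ones for 13 members and below them for 2, beside 17.1% and 30.2% of all tested genes. FZD9, FZD6, WNT4 and DKK1 passed the filter only through the differentiated libraries, so a difference was built into their selection. The same holds for FAP of the fibroblast list and for CNN1 and CSPG4 of the smooth muscle and pericyte list. Among the 17 members with a mean of at least 1 FPKM in each state, 9 rose, 3 fell and 5 did not pass, beside 15.4% higher and 33.8% lower among all genes filtered in that way. The median log2 fold change was 0.64 over the 21 members and -0.18 over all tested genes. A scaling by median ratios raised the median of all genes by 0.185 on the log2 scale and left the members at 13 higher and 3 lower. Under that scaling 3128 of all 12963 tested genes were called higher and 3008 lower, against 2339 and 4137 without it. The shares of all genes given here thus depend on the scaling. All log2 fold changes below are of FPKM + 1, which understates the change of low genes.

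**Figure D1:**
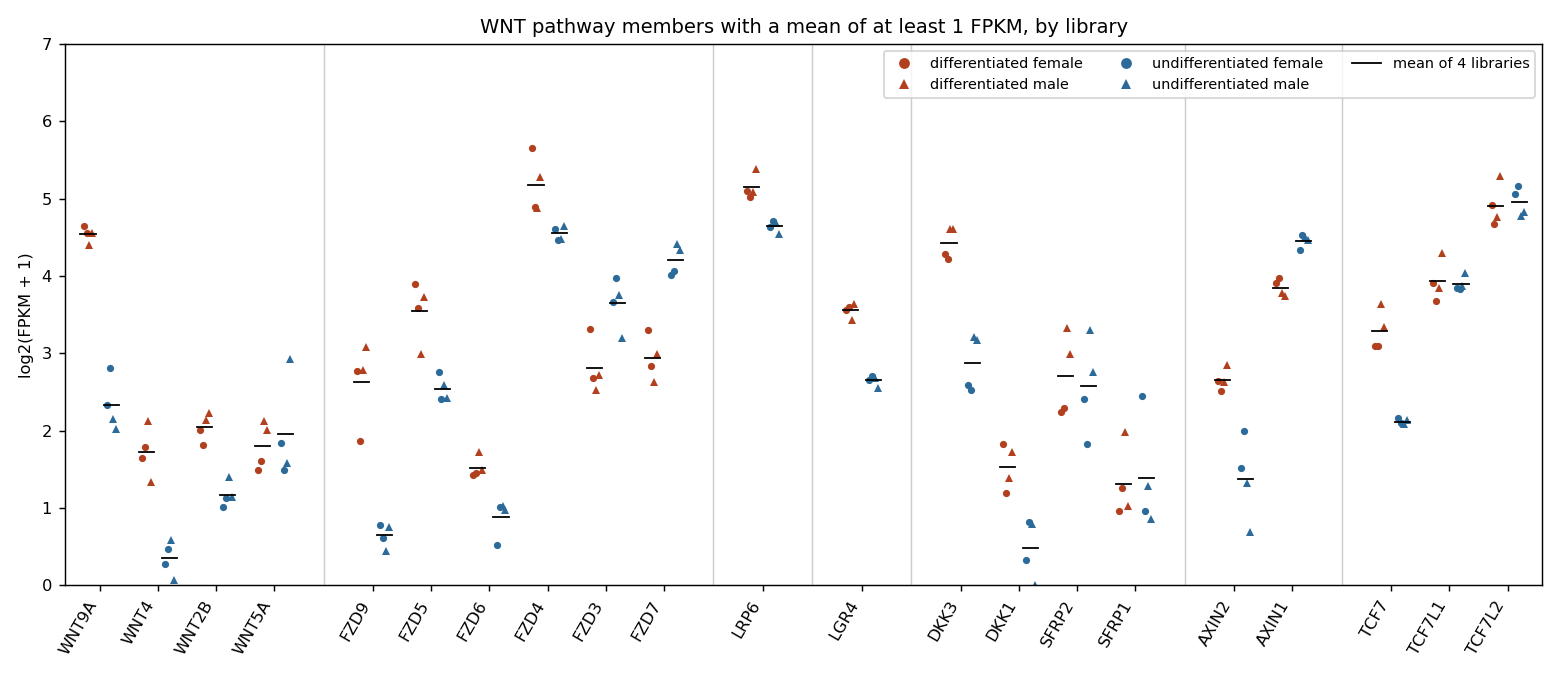
Level of the 21 tested members in each of the 8 libraries, as log2(FPKM + 1), with differentiated cells in red to the left and undifferentiated cells in blue to the right of each gene; circles are female and triangles male libraries, and black bars are means of 4. Of these members, 13 had all differentiated libraries above all undifferentiated ones, and AXIN1 and FZD7 had them all below.

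The ligands WNT9A, WNT4 and WNT2B rose in differentiated cells, and WNT9A had the largest difference of these on the log2(FPKM + 1) scale. With a pseudocount of 0.1 the order of WNT9A and WNT4 turned, at 2.45 for WNT9A and 2.80 for WNT4. WNT9A, a ligand known in mice from joints and cartilage (ENSSSCG00000024671, chromosome 2, 53983851 to 54009499), was at 24.1, 22.5, 20.1 and 22.5 FPKM in differentiated female replicates 1 and 2 and male replicates 1 and 2, against 4.03, 6.01, 3.44 and 3.06 FPKM in the undifferentiated libraries in the same order. The states did not overlap, and the differentiated libraries lay close together. WNT9A averaged 22.3 ± 1.63 FPKM in differentiated and 4.14 ± 1.31 FPKM in undifferentiated cells (SD, n = 4 libraries each, log2 fold change 2.21 ± 0.133 SE, limma adjusted p = 0.000106). Of the summed FPKM of 18 ligands, which are the 16 members and WNT5B and WNT11, named by the identifier table only, WNT9A held 64.7% ± 5.96 in differentiated and 40.9% ± 13.4 in undifferentiated cells (SD, n = 4 each).

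WNT4, a ligand of the developing kidney and gonad, was at 2.14, 2.45, 3.36 and 1.53 FPKM in differentiated libraries, in the order given above, against 0.214, 0.389, 0.503 and 0.0476 FPKM in undifferentiated ones. Every differentiated library was above every undifferentiated one (log2 fold change 1.37 ± 0.27 SE, limma adjusted p = 0.00737). WNT2B, a ligand that acts through beta-catenin, was at 3.01, 2.51, 3.39 and 3.67 FPKM in differentiated libraries and at 1.02, 1.20, 1.64 and 1.20 FPKM in undifferentiated ones, again without overlap (log2 fold change 0.87 ± 0.157 SE, limma adjusted p = 0.00533).

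WNT5A, which mostly acts outside the beta-catenin branch, was at 1.82, 2.04, 3.36 and 3.02 FPKM in differentiated libraries, against 2.58, 1.82, 2.01 and 6.63 FPKM in undifferentiated ones. The states overlapped and the difference did not pass (log2 fold change -0.16 ± 0.309 SE, limma adjusted p = 0.702). Undifferentiated male replicate 2 stood highest, and without it the log2 fold change was 0.18 (limma adjusted p = 0.467, with 0.0728 to 0.987 over the alternatives that tested it). WNT5A held 7.38% ± 1.95 of that ligand sum in differentiated and 30.0% ± 15.3 in undifferentiated cells (SD, n = 4 each). The ligand sum itself was 34.3, 32.6, 35.1 and 36.0 FPKM in differentiated libraries and 9.40, 10.6, 8.59 and 12.8 FPKM in undifferentiated ones.

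**Figure D2:**
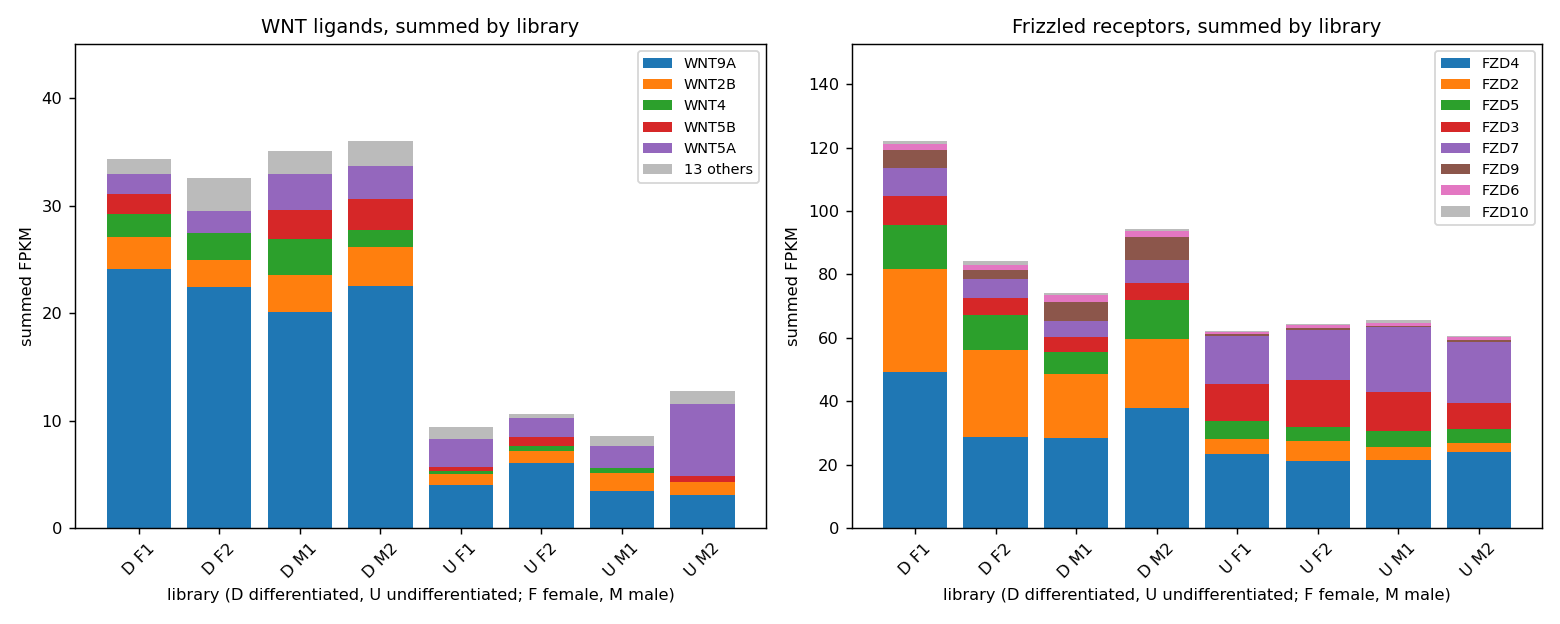
Summed FPKM of 18 WNT ligands (left) and 8 Frizzled receptors (right) in each library, stacked by gene, with WNT5B, WNT11 and FZD2, named by the identifier table, included. The ligand sums were 32.6 to 36.0 FPKM in differentiated and 8.59 to 12.8 FPKM in undifferentiated libraries, and the Frizzled sums 74.1 to 122 FPKM in differentiated and 60.6 to 65.5 FPKM in undifferentiated libraries.

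The other 12 ligands were low, and 11 of them stayed under 1 FPKM in every library. WNT10A and WNT9B were listed at 0 throughout. WNT1, WNT10B, WNT16, WNT3 and WNT8A were listed at 0 in all undifferentiated libraries and above 0 in at least 1 differentiated library. Of these, WNT8A was above 0 in 1 library, WNT10B and WNT3 in 2 and WNT1 in 3. The share of all low genes with such zeros is not given here, so no difference is read from them. WNT16 was above 0 in every differentiated library, at 0.196, 0.130, 0.492 and 0.160 FPKM. WNT1 was at 0.774, 0.542 and 1.01 FPKM in differentiated female replicate 2 and male replicates 1 and 2. WNT7B stood the other way, at 0.113, 0.0673, 0.0697 and 0 FPKM in differentiated libraries and 0.892, 0.142, 0.324 and 0.802 FPKM in undifferentiated ones. WNT10B reached 0.353 FPKM, WNT3 0.961 FPKM, WNT2 0.475 FPKM, WNT8A 0.182 FPKM and WNT8B 0.688 FPKM, each in a differentiated library. WNT7A, which in mouse satellite cells acts through FZD7, reached 0.116 FPKM in differentiated and 0.231 FPKM in undifferentiated cells. Fitted without the filter on low values, none of the 19 low members with a value above 0 was called by limma, and 7 had an unadjusted p under 0.05. In that fit 2887 of all 19990 genes were called higher and 3930 lower, and 8845 had an unadjusted p under 0.05.

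The Frizzled receptors changed in both directions. FZD9, FZD5, FZD4 and FZD6 rose and FZD7 and FZD3 fell. FZD7, the WNT7A receptor named above (ENSSSCG00000016111, chromosome 15, 117063378 to 117065102) was at 8.87, 6.16, 5.18 and 6.98 FPKM in differentiated libraries, against 15.2, 15.8, 20.4 and 19.2 FPKM in undifferentiated ones. All differentiated libraries lay below all undifferentiated ones (log2 fold change -1.27 ± 0.144 SE, limma adjusted p = 0.000927). Of the summed FPKM of 8 Frizzled genes, the 7 members and FZD2, FZD7 held 7.24% ± 0.177 in differentiated and 28.0% ± 4.03 in undifferentiated cells (SD, n = 4 each). FZD3, a receptor known from axon growth and cell polarity, was at 8.93, 5.40, 4.74 and 5.60 FPKM in differentiated libraries and 11.7, 14.8, 12.5 and 8.20 FPKM in undifferentiated ones. Its states overlapped in 1 library each, and its call (log2 fold change -0.84 ± 0.203 SE, limma adjusted p = 0.0159) ended without differentiated male replicate 1 (0.0509) and without undifferentiated female replicate 2 (0.0558), with a range of 0.0109 to 0.0558 over all alternatives.

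FZD9 (ENSSSCG00000023004, chromosome 3, 10454332 to 10456107) had the largest rise among the Frizzled members, at 5.84, 2.64, 5.90 and 7.49 FPKM in differentiated libraries, against 0.724, 0.535, 0.359 and 0.694 FPKM in undifferentiated ones. Differentiated female replicate 2 was lowest of its state and still above every undifferentiated library (log2 fold change 1.98 ± 0.248 SE, limma adjusted p = 0.00136). FZD5, a receptor needed for the yolk sac vessels of mice, was at 13.9, 11.0, 6.97 and 12.3 FPKM in differentiated libraries and 5.79, 4.31, 5.01 and 4.34 FPKM in undifferentiated ones, without overlap (log2 fold change 1.01 ± 0.2 SE, limma adjusted p = 0.00765).

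FZD4, a receptor for WNT ligands and for norrin, had the highest level of the Frizzled genes in every library, per length, at 49.3, 28.8, 28.4 and 38.0 FPKM in differentiated libraries and 23.4, 21.1, 21.4 and 24.1 FPKM in undifferentiated ones. The states did not overlap (log2 fold change 0.62 ± 0.192 SE, limma adjusted p = 0.037), but differentiated female replicate 1 stood apart from the others. Its call was lost when low genes were kept in (0.0525) and when any 1 of 6 libraries was left out (0.0592 to 0.105), all but differentiated female replicate 2 and differentiated male replicate 1, with a range of 0.0108 to 0.105 over all alternatives. FZD4 held 38.3% ± 2.88 of the sum of the 8 Frizzled genes in differentiated and 35.8% ± 3.57 in undifferentiated cells (SD, n = 4 each), and these shares overlapped. Without FZD2 in the sum its share was 52.6% ± 1.78 in differentiated and 38.4% ± 3.32 in undifferentiated cells.

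FZD6, known in mice from the orientation of hair, was at 1.69, 1.73, 2.31 and 1.82 FPKM in differentiated libraries, against 0.438, 1.02, 1.03 and 0.962 FPKM in undifferentiated ones (log2 fold change 0.64 ± 0.202 SE, limma adjusted p = 0.0398). Its call ended under quantile normalization (0.0883), with a block by sex and replicate number (0.0744) and without any 1 of 7 libraries (0.0553 to 0.0966), all but undifferentiated female replicate 2, with a range of 0.0125 to 0.0966. FZD10 fell under the filter, at 0.475 to 1.20 FPKM in differentiated and 0.219 to 0.743 FPKM in undifferentiated libraries.

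FZD2 has no symbol in the table and was named by the identifier table only, so it is not among the 43 members. It was at 32.4, 27.3, 20.1 and 21.5 FPKM in differentiated libraries, against 4.47, 6.40, 4.05 and 2.86 FPKM in undifferentiated ones (log2 fold change 2.29 ± 0.151 SE, limma adjusted p = 0.000148). FZD2 held 27.3% ± 3.95 of the sum of the 8 Frizzled genes in differentiated and 7.01% ± 2.21 in undifferentiated cells (SD, n = 4 each). With it the Frizzled sum was 122, 84.2, 74.1 and 94.3 FPKM in differentiated libraries and 62.0, 64.4, 65.5 and 60.6 FPKM in undifferentiated ones, without overlap, and the 7 members alone gave sums of 54.0 to 89.7 FPKM in differentiated and 57.6 to 61.4 FPKM in undifferentiated libraries, which overlapped. The FZD2 row spans 926 bp. LRP5 and WNT5B were named in the same way. LRP5 averaged 4.86 ± 1.06 FPKM in differentiated and 6.25 ± 0.489 FPKM in undifferentiated cells (SD, n = 4 each, log2 fold change -0.32, limma adjusted p = 0.14), with an adjusted p of 0.0269 without differentiated male replicate 1 and a range of 0.0269 to 0.493 over all alternatives. WNT5B was at 1.86, 0, 2.72 and 2.92 FPKM in differentiated libraries and 0.428, 0.861, 0 and 0.567 FPKM in undifferentiated ones (log2 fold change 0.83, limma adjusted p = 0.128), with an adjusted p of 0.0202 without differentiated female replicate 2 and up to 0.345 over the alternatives that tested it. WNT5B fell under the filter without either differentiated male library, and its row spans 462 bp. WNT11 and DKK4, also named there, stayed at or under 0.176 FPKM.

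**Figure D3:**
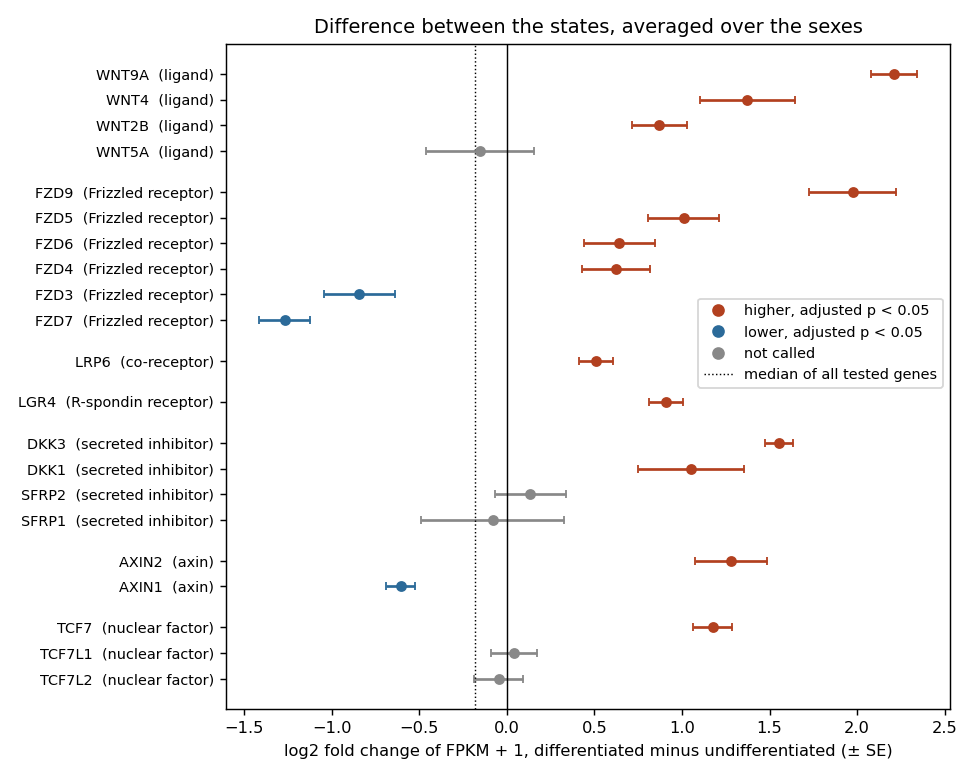
Log2 fold change of FPKM + 1, differentiated minus undifferentiated and averaged over the sexes, with its SE, for the 21 tested members ordered by role. Red points passed as higher, blue ones as lower and grey ones did not pass; the dotted line is the median of all tested genes at -0.18.

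The co-receptor LRP6 and the R-spondin receptor LGR4 rose. LRP6, which binds WNT together with a Frizzled, was at 33.4, 31.5, 33.1 and 40.8 FPKM in differentiated libraries and 23.7, 25.1, 24.8 and 22.4 FPKM in undifferentiated ones, without overlap (log2 fold change 0.51 ± 0.0987 SE, limma adjusted p = 0.00696). LGR4, which binds R-spondins and so keeps Frizzled receptors at the surface, was at 10.8, 11.1, 9.83 and 11.4 FPKM in differentiated libraries, against 5.28, 5.56, 5.44 and 4.85 FPKM in undifferentiated ones (log2 fold change 0.91 ± 0.0981 SE, limma adjusted p = 0.000782). The relatives of LGR4 were low: LGR5, a marker of intestinal stem cells, was listed at 0 throughout and LGR6 reached 0.385 FPKM in differentiated and 0.0580 FPKM in undifferentiated cells. The R-spondins RSPO2, RSPO3 and RSPO4, the ligands of these receptors, stayed under 1 FPKM in every library, with the highest value at 0.937 FPKM for RSPO3 in differentiated male replicate 1.

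Among the secreted inhibitors DKK3 and DKK1 rose, SFRP1 and SFRP2 did not pass, and DKK2, FRZB and SFRP5 were under the filter. DKK3, a Dickkopf relative that unlike DKK1 is not known as a plain blocker of LRP6 (ENSSSCG00000013401, chromosome 2, 50699985 to 50758475), was at 18.5, 17.7, 23.5 and 23.4 FPKM in differentiated libraries, against 5.03, 4.78, 8.27 and 8.03 FPKM in undifferentiated ones. The states did not overlap, and within each state both male libraries were above both female ones. DKK3 averaged 20.7 ± 3.11 FPKM in differentiated and 6.53 ± 1.88 FPKM in undifferentiated cells (SD, n = 4 each, log2 fold change 1.55 ± 0.0789 SE, limma adjusted p = 5.5e-05). The sex difference of DKK3, female minus male, was -0.50 on the log2 scale and did not pass (limma adjusted p = 0.228).

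DKK1, which binds LRP6 and blocks the beta-catenin branch, was at 2.56, 1.28, 1.63 and 2.31 FPKM in differentiated libraries, against 0.257, 0.769, 0.728 and 0 FPKM in undifferentiated ones (log2 fold change 1.05 ± 0.303 SE, limma adjusted p = 0.0296). Its call ended with a pseudocount of 0.1 (0.0536), under quantile normalization (0.0686), with a block by sex and replicate number (0.073) and without differentiated male replicate 2 (0.0794), undifferentiated female replicate 1 (0.0867) or undifferentiated male replicate 2 (0.0755), with a range of 0.0198 to 0.0867 where it was tested. Without differentiated female replicate 1 its mean fell under the filter, so that it was not tested there. DKK2 was listed at up to 0.939 FPKM in differentiated and 0.931 FPKM in undifferentiated cells.

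SFRP2, a decoy that binds WNT proteins, was at 3.71, 3.89, 9.01 and 6.95 FPKM in differentiated libraries and 4.33, 2.54, 8.89 and 5.75 FPKM in undifferentiated ones (log2 fold change 0.13 ± 0.2 SE, limma adjusted p = 0.606). Male replicate 1 was highest in both states. The summed fibroblast markers were also highest there, at 1131 FPKM in the differentiated and 322 FPKM in the undifferentiated library. These sums came mostly from COL1A1 and COL3A1, while DCN, FAP and TCF21 were highest in other undifferentiated libraries. The part of these markers in the level of SFRP2 was not tested. SFRP1, a decoy of the same family, was at 0.945, 1.40, 2.95 and 1.03 FPKM in differentiated libraries and 4.47, 0.943, 1.44 and 0.811 FPKM in undifferentiated ones, with its direction changing under median-ratio scaling (log2 fold change -0.08 ± 0.407 SE, limma adjusted p = 0.887). FRZB, a decoy known from cartilage, was at 0.398 to 0.948 FPKM in differentiated and 0.0795 to 0.562 FPKM in undifferentiated libraries, and SFRP5, a decoy too, at 0.240 to 0.523 FPKM in differentiated and 0.132 to 0.385 FPKM in undifferentiated libraries.

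The axins moved apart. AXIN1, the scaffold of the complex that destroys beta-catenin, was at 14.0, 14.8, 12.7 and 12.4 FPKM in differentiated libraries, against 19.2, 22.0, 21.6 and 21.0 FPKM in undifferentiated ones (log2 fold change -0.61 ± 0.0841 SE, limma adjusted p = 0.00193). AXIN2, its relative and a feedback target of beta-catenin in many tissues (ENSSSCG00000017265, chromosome 12, 12660556 to 12661377), was at 5.23, 4.71, 5.17 and 6.23 FPKM in differentiated libraries, against 1.87, 2.97, 1.50 and 0.609 FPKM in undifferentiated ones (log2 fold change 1.28 ± 0.205 SE, limma adjusted p = 0.00338). Neither gene overlapped between the states. The AXIN2 row spans 822 bp, against 45852 bp for AXIN1, so its FPKM rests on a short gene model.

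Of the nuclear factors TCF7 rose and its relatives did not pass. TCF7, known from T cells, was at 7.54, 7.57, 11.5 and 9.13 FPKM in differentiated libraries, against 3.47, 3.27, 3.24 and 3.40 FPKM in undifferentiated ones (log2 fold change 1.17 ± 0.112 SE, limma adjusted p = 0.00051). The undifferentiated libraries were nearly equal and all lay below the differentiated ones. TCF7L2, the most abundant of these factors per length, was at 24.4 to 38.3 FPKM in differentiated and 26.4 to 34.7 FPKM in undifferentiated libraries (log2 fold change -0.05, limma adjusted p = 0.807), and its direction changed under median-ratio scaling. TCF7L1, mostly a repressor, was at 11.8 to 18.6 FPKM in differentiated and 13.3 to 15.4 FPKM in undifferentiated libraries (log2 fold change 0.04, limma adjusted p = 0.823). LEF1 fell under the filter, at 0.293 to 1.49 FPKM in differentiated and 0.117 to 1.89 FPKM in undifferentiated libraries.

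The state effect was also read within each sex. In females 10 of the 21 members and in males 11 were called, beside 35.8% and 33.0% of all tested genes. All 16 members called over both sexes had the same sign in each sex, and the 3 with opposite signs, SFRP1, TCF7L1 and TCF7L2, were not called. The call is made on the mean of the female and male effects, which favours like signs. The like signs are therefore no separate support for the calls. For the difference of the state effect between females and males, 0 members were called by limma, beside 0.0231% of all tested genes. An unadjusted p under 0.05 was held by 0 members, beside 782 of 12963 tested genes. Between females and males averaged over the states, 0 members were called by limma, beside 0.0849% of all tested genes. Here 2 of the 21 members, DKK3 and SFRP2, had an unadjusted p under 0.05, beside 1261 of the 12963 genes.

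The other genes of the pathway came from 5 lists with 85 genes, of which 77 were found in the table and 66 tested. Of these, 18 rose, 21 fell and 27 did not pass, with a median log2 fold change of -0.10, beside 18.0% of all tested genes higher, 31.9% lower and a median of -0.18. The same background stands beside the counts of each list. In ligand processing and co-receptors 3 of 9 tested genes rose and 2 fell. MUSK, the receptor kinase of the neuromuscular junction, averaged 77.6 ± 9.60 FPKM in differentiated and 13.8 ± 4.91 FPKM in undifferentiated cells (SD, n = 4 each, log2 fold change 2.46, limma adjusted p = 0.000478). KREMEN1, a partner of DKK1 in removing LRP6, averaged 41.4 ± 13.6 FPKM in differentiated and 7.52 ± 1.33 FPKM in undifferentiated cells (log2 fold change 2.27, limma adjusted p = 0.000134). ZNRF3, a ligase that removes Frizzled receptors, rose by 0.60 on the log2 scale (limma adjusted p = 0.0154), and the call was lost without undifferentiated female replicate 1 (0.0531). PORCN, which adds the lipid to WNT proteins, averaged 3.00 ± 1.19 FPKM in differentiated and 8.89 ± 2.16 FPKM in undifferentiated cells (log2 fold change -1.33, limma adjusted p = 0.00522), and RYK, a WNT receptor of the kinase type, fell by 1.10 on the log2 scale (limma adjusted p = 0.000332).

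In cytoplasmic signalling 4 of 18 tested genes rose and 4 fell. DACT3, an inhibitor of Dishevelled, and APC, the partner of axin, rose, with log2 fold changes of 1.65 for DACT3 and 0.87 for APC, while the casein kinases CSNK1D and CSNK1E fell by 0.77 and 0.73 on the log2 scale (limma adjusted p from 0.000392 to 0.00153). Beta-catenin itself, CTNNB1, chosen after its values were seen, averaged 118 ± 15.4 FPKM in differentiated and 124 ± 2.80 FPKM in undifferentiated cells (SD, n = 4 each) and did not pass (limma adjusted p = 0.524). Among the nuclear partners 3 of 11 rose and 1 fell: the corepressor TLE4 and the coactivator BCL9L rose, with log2 fold changes of 1.19 for TLE4 and 1.11 for BCL9L, and the corepressor CTBP2 fell by 0.63 (limma adjusted p from 0.000255 to 0.00369). In the polarity and calcium branch 7 of 14 rose and 5 fell. Of these, NFATC1 and PRICKLE2 passed the filter only through the differentiated libraries and CELSR1 only through the undifferentiated ones. A difference was thus built into the selection of these genes. PRICKLE1, a polarity protein, and NFATC1, a factor that responds to calcium, rose, with log2 fold changes of 2.15 for PRICKLE1 and 1.82 for NFATC1 (limma adjusted p = 0.000603 and 0.00126), and CELSR1 and INVS, both of the polarity branch, fell by 1.75 and 0.92 on the log2 scale (limma adjusted p = 0.0036 and 0.00113).

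**Figure D4:**
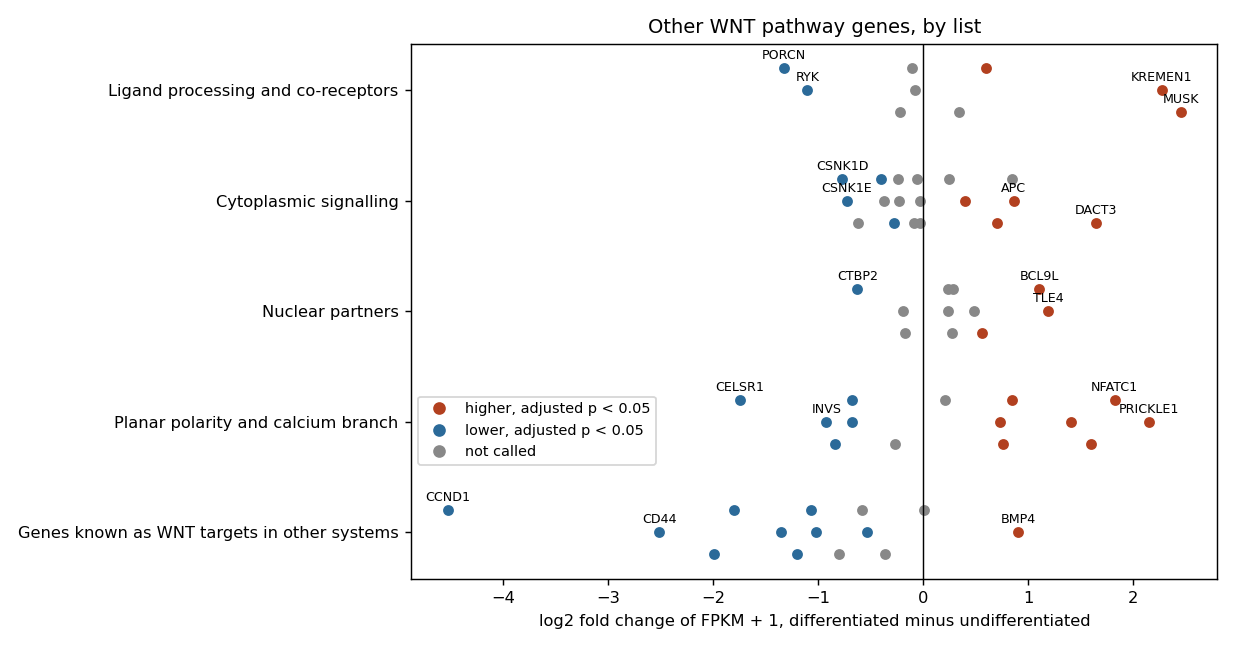
Log2 fold change of FPKM + 1, differentiated minus undifferentiated, for 66 tested pathway genes in 5 lists, with 1 point a gene (vertical scatter has no meaning) and the most risen and most fallen called genes named. The listed genes known elsewhere as WNT targets, without the member AXIN2, lie mostly to the left, with 1 called higher and 9 called lower. The other lists lie on both sides.

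Of 14 tested genes listed as known WNT targets in other systems, 1 rose and 9 fell, beside 18.0% higher and 31.9% lower of all tested genes. The list leaves out the members, among them the feedback target AXIN2, which rose (log2 fold change 1.28, limma adjusted p = 0.00338). Of the listed genes that fell, BAMBI passed the filter only through the undifferentiated libraries, so a difference was built into its selection. CCND1, cyclin D1, and CD44, a matrix receptor, fell by 4.53 and 2.51 on the log2 scale (limma adjusted p = 4.05e-05 and 0.0004). MYC fell by 1.80 (limma adjusted p = 0.000479). The CCND1 row spans 933 bp, so its FPKM rests on a short gene model, like that of AXIN2. BMP4 rose with a log2 fold change of 0.90 (limma adjusted p = 0.0335), and the call was lost with low genes kept in (0.0515), with a block by sex and replicate number (0.0542) and without any 1 of 6 libraries (0.0579 to 0.101), all but the undifferentiated male ones. Many of these genes are also known from growing cells. The proliferation markers MKI67, TOP2A and CCNB1, 3 of 3 tested, fell as well, with summed levels of 10.8 to 48.2 FPKM in differentiated and 127 to 184 FPKM in undifferentiated libraries, and their part in the fall of the target genes was not tested.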

How the data were processed

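The deposited table holds FPKM values made by the authors, 1 column per library. Per the submitters' processing notes the tools were Cufflinks 2.2.1, TopHat2 2.0.12.1 and cutadapt 1.6, and the build was Sscrofa10.2. Per the labels, a stranded total RNA kit and 100-bp paired ends were used, and the molecule is given as polyA RNA. Settings, gene annotation and the strand setting are not given in the sources used here.

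Members were matched by the table's symbols. Other genes were matched by those symbols or, where the cell was empty, by an Ensembl identifier table (1841 genes). The members and lists were chosen with earlier results of these data known. The scale was log2(FPKM + 1), a mean of 1 FPKM or more was required for testing, and limma 3.58.1 in R 4.3.3 was fitted with 1 mean per group, a mean-variance trend, and 4 residual and 2.09 prior degrees of freedom. The method was tested on simulated data. "Rose" and "fell" mean an adjusted p under 0.05. Named genes are all tested members and, of each pathway list, the 2 most risen and 2 most fallen called genes, with MYC and ZNRF3 as further called genes. Sums over the WNT and Frizzled families take in genes that only the identifier table names, a choice made after seeing the data.

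Whole reads were not recovered from FPKM. Relative depth came from the commonest ratio between libraries among 5565 genes of low mean, with a largest misfit of 0.0571 over 28 pairs on the log2 scale. No interval or floor that needs read counts is given.

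For libraries of the 2 states with the same sex and replicate number, deviations from the group means had correlations across 12603 genes of 0.113 in females and 0.126 in males. With 2 libraries a group, both pairs of a sex give the same value. The block by sex and replicate number rests on these low values and the shared numbers. They do not establish a pairing, and no label states one. The alternatives tried were a filter at 5 FPKM, no filter at all, a pseudocount of 0.1, median-ratio scaling, quantile normalization, genes under 300 bp left out, a block by sex and replicate number, no mean-variance trend and each library left out.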

Additional observations from a re-analysis of the deposited data

Results flagged for a closer look

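Among 42 sets of 4 libraries of a state, 2 held a library far from the other 3 on the log2 scale, where chance gives about 1 in 20. FZD6 stood at 0.438 FPKM in undifferentiated female replicate 1, below 0.962 to 1.03 FPKM in the other undifferentiated libraries. TCF7L1 stood at 15.4 FPKM in undifferentiated male replicate 2, above 13.3 to 13.6 FPKM in the others.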

How the results depend on the processing

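With a filter at 5 FPKM, 7 members were called higher, because 13 members were tested. The other alternatives gave 10 to 13 members called higher and 2 to 3 called lower, and leaving out each library gave 10 to 12 and 2 to 3. With the block by sex and replicate number 11 members were called higher and 3 lower, all among those called without it, and 16 and 19 of the other pathway genes. Those genes gave 14 to 25 called higher and 17 to 23 called lower over all alternatives. No member was called for sex or for its difference in state effect under any alternative run, and the sex difference could not be fitted with the block. Among the members and pathway genes named, the block ended the calls of FZD6, DKK1 and BMP4 and no other, and no called one reversed in the alternatives that tested it. Calls over all tested genes moved with the setting too. They were 1720 higher and 3572 lower of 9482 with the filter at 5 FPKM, and 2887 and 3930 of 19990 without a filter. Of 12963 genes they were 3128 and 3008 under median-ratio scaling, 2699 and 3302 under quantile normalization and 2206 and 3948 with the block. Marker genes were not run under the alternatives. Directions of genes that were not called changed for TCF7L2 (0.16 under median-ratio scaling, 0.12 under quantile normalization), SFRP1 (0.0411 under median-ratio scaling) and CTNNB1 (0.12 and 0.0233 under these 2 settings), and the cause was not tested. With each library left out the log2 fold change ran from -0.49 to 0.18 for WNT5A, -0.0723 to 0.15 for TCF7L1, -0.18 to 0.088 for TCF7L2, -0.45 to 0.29 for SFRP1, -0.013 to 0.28 for SFRP2 and -0.18 to 0.0034 for CTNNB1. Depth limits the 22 members under the filter.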

Other observations

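The levels of some neighbouring ligand genes were set side by side. WNT9A and WNT3A lie 42.6 kb apart on chromosome 2, on opposite strands, and WNT3A reached 0.466 FPKM in differentiated and 0.377 FPKM in undifferentiated libraries, while WNT9A was at 20.1 to 24.1 FPKM in differentiated and 3.06 to 6.01 FPKM in undifferentiated libraries. WNT1 and WNT10B lie 8.68 kb apart on chromosome 5, where both were low in differentiated libraries and listed at 0 in all 4 undifferentiated ones. WNT1 was above 0 in 3 differentiated libraries and WNT10B in 2, and both were so only in male replicate 1. No likeness is read from values this near 0.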
